A study of Mus musculus with 2 samples.

Results

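The genes described here are 30 genes of mitosis and the spindle, chosen by name with earlier results of these data known. All 30 had a row among the 16906 genes of the deposited table. They encode the mitotic cyclins and their kinase, the kinases and checkpoint proteins of mitosis, kinetochore and centromere proteins, the chromosomal passenger complex, spindle motors and the proteins that cut the cell apart. RNA was sequenced from luminal cells of the mouse mammary gland, sorted by flow cytometry. The CKO library came from K8-CreERT2;miR-200c/141-flox/flox mice, which carry a Cre recombinase driven from the keratin 8 promoter and switched on by tamoxifen, together with a floxed microRNA cluster. The Ctrl library came from miR-200c/141-flox/flox mice, which carry the floxed cluster and no Cre. Both kinds of mice were C57BL/6, 8 weeks old and injected with tamoxifen, and the labels give the interval after it as 4 weeks in one field and 3 days in another. About 20000 cells were sorted, there was 1 library per group with no replicate, and the labels do not state how many mice stood behind a library. Levels of the deleted microRNAs were not analysed here, so the deletion was not checked in these libraries. The effects of the Cre driver and of the deletion cannot be told apart in this design.

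Mitosis genes are switched on late in the cell cycle. Cyclins A and B activate the kinase Cdk1, which drives entry into mitosis, and destruction of the cyclins and of other proteins by the anaphase-promoting complex brings the cell out of it. Most of these genes are silent in resting cells, because the MuvB complexes hold them off through a promoter sequence called the cell cycle genes homology region (CHR), and are turned on in G2 by MuvB together with B-Myb and FoxM1, usually beside CCAAT boxes bound by NF-Y. Their summed RNA is commonly read as a measure of how many cells divide, and in bulk RNA fewer dividing cells and less RNA per dividing cell cannot be told apart.

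The deleted cluster encodes miR-200c and miR-141, whose main arms are shown because the comparison is of cells with and without them. The sequences are from RefSeq on GRCm38.p6, chromosome 6, minus strand, at 124718324 to 124718346 for miR-200c-3p and 124717917 to 124717938 for miR-141-3p. Capitals mark the seed, bases 2 to 8, which differs between them at 1 place.
miR-200c-3p: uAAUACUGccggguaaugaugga
miR-141-3p: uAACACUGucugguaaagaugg

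The promoters of Cdk1, Ccnb1, Top2a and Ccnb2 are shown because these 4 genes had the highest lower bounds on their ratio between the libraries, as given further on. Each window runs from 250 bases before the annotated start to 50 after it, read 5′ to 3′ on the gene's own strand, from RefSeq on GRCm38.p6. They lie at chr10:69352863-69353162 (Cdk1), chr13:100786437-100786736 (Ccnb1), chr11:99024140-99024439 (Top2a) and chr9:70421505-70421804 (Ccnb2), all on the minus strand. Capitals mark CHR letters, searched as TTTGAA or TTCGAA, and CCAAT boxes, searched as CCAAT, on both strands, so that TTCAAA and ATTGG are also marked.
Cdk1: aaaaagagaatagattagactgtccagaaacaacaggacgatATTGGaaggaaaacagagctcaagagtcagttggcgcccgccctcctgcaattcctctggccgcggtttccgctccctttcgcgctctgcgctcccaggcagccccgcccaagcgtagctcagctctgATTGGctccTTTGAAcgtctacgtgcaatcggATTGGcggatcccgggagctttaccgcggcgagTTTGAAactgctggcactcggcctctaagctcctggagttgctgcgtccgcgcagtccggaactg
Ccnb1: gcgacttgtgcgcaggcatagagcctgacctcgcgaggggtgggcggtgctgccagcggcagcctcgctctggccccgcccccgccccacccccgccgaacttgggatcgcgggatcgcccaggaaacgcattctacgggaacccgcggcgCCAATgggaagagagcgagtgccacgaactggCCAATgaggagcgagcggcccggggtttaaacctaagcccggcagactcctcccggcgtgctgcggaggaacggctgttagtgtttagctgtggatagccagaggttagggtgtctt
Top2a: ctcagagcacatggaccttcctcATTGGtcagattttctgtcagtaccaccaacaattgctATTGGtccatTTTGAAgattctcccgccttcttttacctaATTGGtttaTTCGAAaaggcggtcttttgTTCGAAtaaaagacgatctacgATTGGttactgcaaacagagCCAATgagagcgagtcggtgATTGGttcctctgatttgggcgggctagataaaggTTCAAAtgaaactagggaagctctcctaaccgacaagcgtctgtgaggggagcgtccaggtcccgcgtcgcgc
Ccnb2: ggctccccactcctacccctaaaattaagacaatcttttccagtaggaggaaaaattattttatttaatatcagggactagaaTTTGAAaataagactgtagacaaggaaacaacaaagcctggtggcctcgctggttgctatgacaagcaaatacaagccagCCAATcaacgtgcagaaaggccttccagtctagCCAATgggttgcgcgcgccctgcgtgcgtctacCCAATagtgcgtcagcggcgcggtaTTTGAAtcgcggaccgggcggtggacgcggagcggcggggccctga

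Levels are the deposited FPKM, which relate fragments to transcript length and to library size, with 0.01 standing for no reads. Reads were estimated from FPKM and transcript length at about 11400000 reads in CKO and 12500000 in Ctrl. Ratios are FPKM in CKO over FPKM in Ctrl with nothing added. Each ratio has a 95% exact (Clopper-Pearson) interval from the estimated reads. Intervals of single genes are printed on the log2 scale, also beside a ratio given as a fold. Intervals of summed reads are on the scale of the ratio they follow, fold or log2. These intervals and the floor used for 0 reads cover counting error alone, as PCR copies of a molecule are counted again. A gene was counted as higher or lower when the ratio reached 1.5-fold and the interval excluded no difference. With 1 library per group none of this measures the spread between animals, and no p-value was computed.

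The sort was checked against luminal markers. All 14 listed, among them Krt8, Krt18, Krt19 and Epcam, were present, between 17.2 and 10398 FPKM in CKO and between 16.3 and 6607 FPKM in Ctrl.

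The mitosis and spindle genes were weakly expressed in both libraries and nearly all lay higher in CKO. Their levels ran from 0.18 to 6.25 FPKM in CKO, with a median of 0.91, and from 0.01 to 4.82 FPKM in Ctrl, with a median of 0.49. The median over all genes of the table was 5.12 FPKM in CKO and 5.48 FPKM in Ctrl. Of the 30 genes, 29 had the higher value in CKO, 19 were counted as higher and 0 as lower. Over all 16906 genes of the table, 44.3% lay higher in CKO, 3.16% were counted as higher and 4.85% as lower. Since weak genes have wide intervals, the 7287 genes with summed reads in the range of these 30, from 7 to 515 reads, are the closer background. There 43.2% lay higher, 5.53% were counted as higher and 9.56% as lower. The 30 genes were chosen with earlier results of these data known, so these shares describe the list and do not test it.

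The median log2 ratio of the 30 genes was 1.08, a fold of 2.12, against a median of -0.03 over all genes and of -0.07 over the 7287 genes of similar read number. Summed over the genes there were 1438 reads in CKO and 902 in Ctrl, or 126 in CKO and 72.2 in Ctrl per 1000000 reads. The ratio of these sums was 1.74, with an interval of 1.60 to 1.89. The sum moved less than the median gene because the 4 genes with the most reads, Anln, Bub1b, Hmmr and Cenpa, had ratios between 1.07 and 1.59 and held 38.6% of these reads in CKO and 51.9% in Ctrl. Transcript length made little difference, with a median log2 ratio of 1.09 in the 15 genes longer than 2780 bases and 1.08 in the 15 shorter ones.

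**Figure D1:**
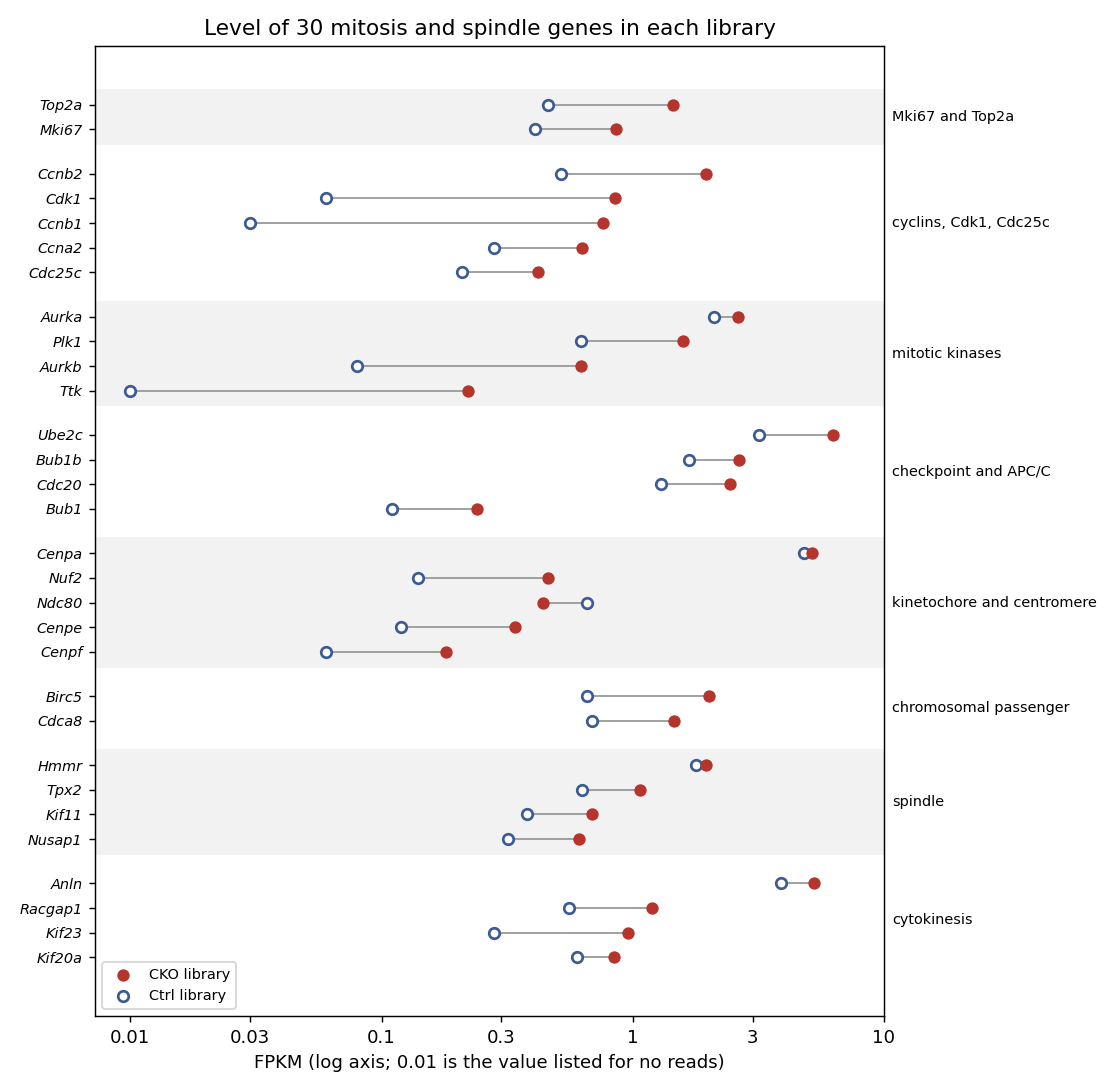
FPKM of each of the 30 genes in the CKO library (filled) and the Ctrl library (open) on a log axis, grouped by role. Of the 30, 29 have the CKO point to the right, Ndc80 has it to the left, and the gap is widest in Ccnb1, Ttk, Cdk1 and Aurkb, which lie at or under 0.08 FPKM in Ctrl, as does Cenpf with a ratio of 3.00.

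The mitotic cyclins and their kinase had the largest ratio of summed reads among the 8 groups by role. Cdk1, the kinase that drives entry into mitosis, was at 0.85 FPKM in CKO and 0.06 FPKM in Ctrl, from 28 and 2 reads. Its ratio was 14.2 (log2 interval 1.95 to 7.05). Ccnb1, which encodes cyclin B1, the main partner of Cdk1 at mitotic entry, was at 0.76 FPKM in CKO and 0.03 FPKM in Ctrl. With 20 reads in CKO and 1 in Ctrl the ratio of 25.3 had bounds of 1.81 and 9.82 on the log2 scale, so that its size is poorly fixed at this depth. Ccnb2, which encodes cyclin B2, stood at 1.95 FPKM in CKO and 0.52 FPKM in Ctrl, from 34 and 10 reads, a ratio of 3.75. Both B cyclins and Cdk1 were thus counted as higher. Ccna2, the cyclin that acts in S phase and G2, was at 0.63 FPKM in CKO and 0.28 FPKM in Ctrl, and the log2 interval, -0.03 to 2.39, held no difference by a narrow margin. Cdc25c, a phosphatase that activates Cdk1, had 7 reads in CKO and 4 in Ctrl, too few to show a difference of 2-fold. The 5 genes together had 109 reads in CKO and 27 in Ctrl, a ratio of 4.41 with an interval of 2.87 to 6.99. This interval overlapped those of the chromosomal passenger genes (2.56, 1.64 to 4.10) and of Mki67 with Top2a (2.49, 1.90 to 3.29). GENCODE annotates pseudogenes named Ccnb1-ps and Ccnb2-ps, so some reads of the B cyclins may be shared with these copies.

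Of the mitotic kinases, Plk1, Aurkb and Ttk were counted as higher and Aurka was not. Aurka, the aurora kinase of the spindle poles, was at 2.63 FPKM in CKO and 2.10 FPKM in Ctrl, a log2 ratio of 0.32 (interval -0.26 to 0.90). Aurkb, the aurora kinase of the centromere and the midzone, was at 0.62 FPKM in CKO and 0.08 FPKM in Ctrl, from 14 and 2 reads. Its ratio was 7.75 (log2 interval 0.81 to 6.12). The intervals of these kinases overlapped between 0.81 and 0.90. Plk1, the polo kinase that acts from mitotic entry to cytokinesis, was at 1.58 FPKM in CKO and 0.62 FPKM in Ctrl, a ratio of 2.55 from 40 and 17 reads. Ttk, the kinase known as Mps1 that starts the spindle checkpoint, had 7 reads in CKO and was listed at the floor of 0.01 FPKM, with 0 estimated reads, in Ctrl. Set against 3 reads, the floor used here for a count of 0, its 7 reads taken as they stand were 2.55-fold higher in CKO. That value depends on the floor and is no minimum. With the counting error of those 7 reads included, the lower log2 bound was 0.65 at 95% and -0.05 at 99%.

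Of the genes of the spindle checkpoint and of the anaphase-promoting complex, 3 of 4 were counted as higher, each at a level above the median of the 30 genes. Ube2c, the ubiquitin-conjugating enzyme of the complex, had the highest level of all 30 genes in CKO, at 6.25 FPKM against 3.19 FPKM in Ctrl. Its ratio was 1.96 from 67 and 37 reads (log2 interval 0.38 to 1.60). Cdc20, which activates the complex at anaphase, was at 2.45 FPKM in CKO and 1.30 FPKM in Ctrl, a ratio of 1.88. Bub1b, which encodes the checkpoint protein BubR1, was at 2.65 FPKM in CKO and 1.67 FPKM in Ctrl, from 111 and 77 reads, and its ratio of 1.59 was the lowest among the genes counted as higher. Bub1, a checkpoint kinase at the kinetochore, had 12 reads in CKO and 6 in Ctrl, with a log2 interval of -0.40 to 2.83. The 4 genes had 240 reads in CKO and 149 in Ctrl, a ratio of 1.76 (1.43 to 2.17).

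Kinetochore and centromere genes were mixed, with 2 of 5 counted as higher. Cenpe, the kinesin that tethers kinetochores to microtubules, was at 0.34 FPKM in CKO and 0.12 FPKM in Ctrl, a ratio of 2.83 from 30 and 12 reads. Cenpf, a large kinetochore protein, was at 0.18 FPKM in CKO and 0.06 FPKM in Ctrl, a ratio of 3.00 from 23 and 8 reads. Both were counted as higher. Cenpa, the histone H3 variant that marks the centromere, was the most highly expressed of the group and nearly level, at 5.18 FPKM in CKO and 4.82 FPKM in Ctrl, with a log2 interval of -0.38 to 0.60. Ndc80 and Nuf2 encode partners that form a dimer in the microtubule-binding complex, and their values pointed opposite ways. Nuf2 had 11 reads in CKO and 4 in Ctrl, whereas Ndc80 had 11 reads in CKO and 18 in Ctrl. Ndc80, at 0.44 FPKM in CKO and 0.66 FPKM in Ctrl, was the one gene of the 30 with a lower value in CKO, and its log2 interval ran from -1.81 to 0.58. Neither interval of this pair excluded no difference.

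Among chromosomal passenger genes, whose products correct faulty attachments together with Aurkb, Birc5 encodes survivin and Cdca8 encodes borealin. Birc5 was at 2.01 FPKM in CKO and 0.66 FPKM in Ctrl, a ratio of 3.05 from 41 and 15 estimated reads. The authors' deposited table gives Birc5 a p-value of 0.054 in its test of one library's reads against the other's, which those reads would not return. With the summed reads kept, that p-value implies a log2 ratio of 0.76 (interval -0.06 to 1.60), so the call for Birc5 depends on which column of the table is used. Cdca8 was at 1.46 FPKM in CKO and 0.69 FPKM in Ctrl, a ratio of 2.12. The scaffold of the complex, Incenp, which is no member and was named after its values were seen, was at 3.57 FPKM in CKO and 2.98 FPKM in Ctrl, with a log2 interval of -0.10 to 0.64.

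Of the spindle genes, 2 of 4 were counted as higher, both close to the limit. Kif11, the kinesin that pushes the spindle poles apart, was at 0.69 FPKM in CKO and 0.38 FPKM in Ctrl, with a log2 interval of 0.07 to 1.67. Tpx2, which activates Aurka on the spindle, was at 1.07 FPKM in CKO and 0.63 FPKM in Ctrl, with an interval of 0.01 to 1.56. For Tpx2 the reads implied by the authors' deposited p-value again gave a smaller log2 ratio, 0.40, with an interval of -0.35 to 1.16. Nusap1, which bundles spindle microtubules, had 17 reads in CKO and 10 in Ctrl. Hmmr, a hyaluronan receptor that also binds spindle poles, was level, at 1.95 FPKM in CKO and 1.79 FPKM in Ctrl, from 87 and 88 reads.

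Of the cytokinesis genes, Kif23 and Racgap1 encode the kinesin and the GTPase-activating protein of centralspindlin, which organises the midzone. Kif23 was at 0.96 FPKM in CKO and 0.28 FPKM in Ctrl, a ratio of 3.43 (log2 interval 0.82 to 2.86). Racgap1 was at 1.19 FPKM in CKO and 0.56 FPKM in Ctrl, a ratio of 2.12 (log2 interval 0.28 to 1.95). Both partners were counted as higher. Kif20a, a midzone kinesin, was at 0.84 FPKM in CKO and 0.60 FPKM in Ctrl, and its interval held no difference. Anln, which encodes the actin-binding protein anillin of the cleavage furrow, had by far the most reads of the 30 genes, 285 in CKO and 230 in Ctrl. At 5.27 FPKM in CKO and 3.90 FPKM in Ctrl its ratio of 1.35 came with log2 bounds of 0.18 and 0.69, above 0 but short of the 1.5-fold limit.

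Mki67 and Top2a are the usual markers of dividing cells, the first coating mitotic chromosomes and the second untangling DNA. Mki67 was at 0.86 FPKM in CKO and 0.41 FPKM in Ctrl, from 94 and 49 reads, a ratio of 2.10 (log2 interval 0.55 to 1.60). Top2a was at 1.45 FPKM in CKO and 0.46 FPKM in Ctrl, from 86 and 30 reads. Its ratio was 3.15 (log2 interval 1.03 to 2.30). The intervals of Mki67 and Top2a overlap, and both lie above 0.

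**Figure D2:**
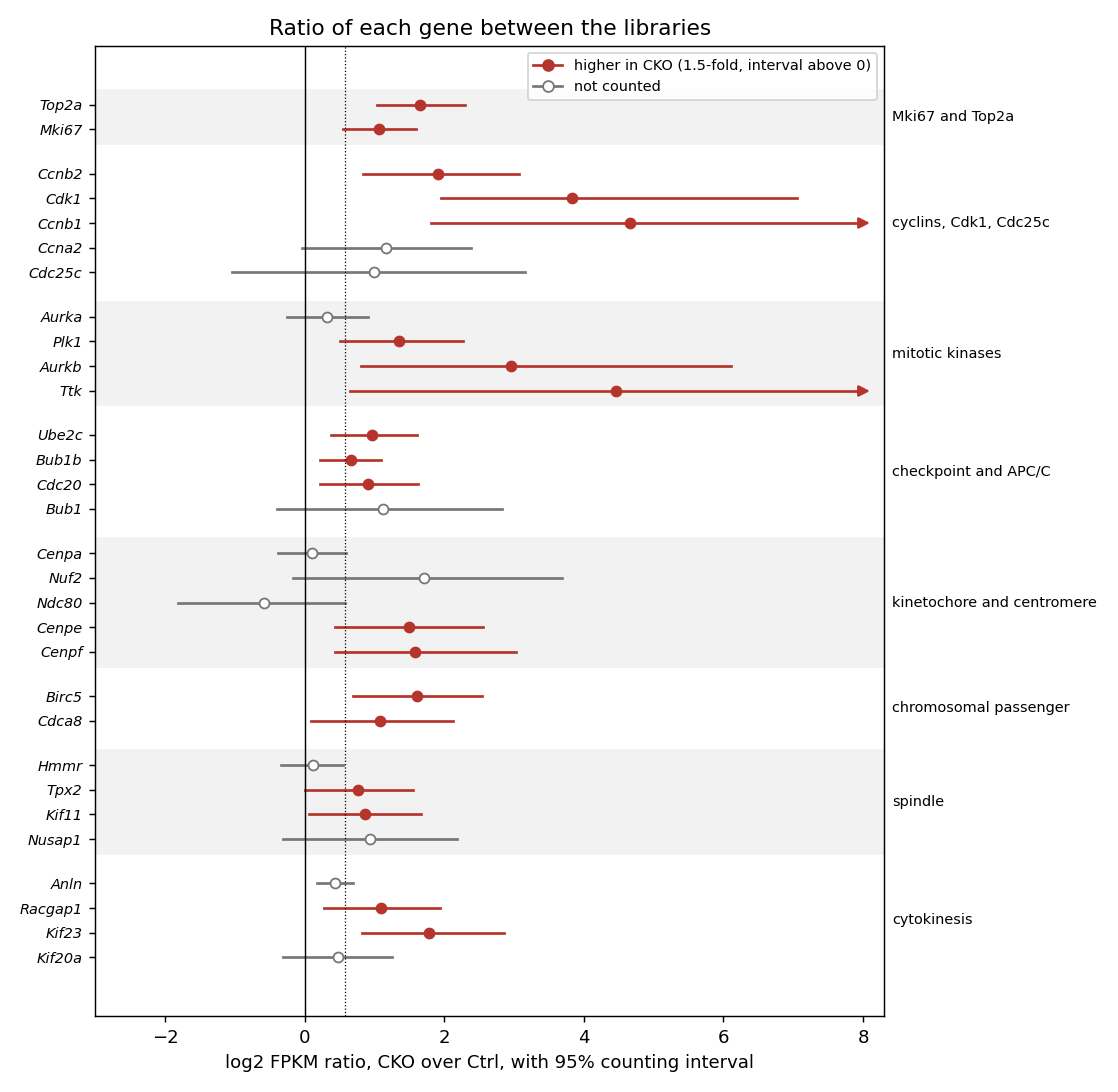
Log2 ratio of FPKM, CKO over Ctrl, of each gene with its 95% counting interval. Arrows mark intervals that run past 8, the dotted line is 1.5-fold, the Ttk point is its ratio to the listed floor, and the 19 filled points were counted as higher. The intervals of Anln and Bub1b, which had the most reads, are short, and those of Ccnb1, Ttk, Cdk1 and Aurkb are long.

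Of the 11 genes not counted, 5 had a ratio of at least 1.5-fold with an interval that held no difference (Ccna2, Cdc25c, Bub1, Nuf2 and Nusap1), 5 lay within 1.5-fold (Aurka, Cenpa, Hmmr, Kif20a and Anln), and Ndc80 lay on the other side. Just inside the limits were Bub1b with a ratio of 1.59 and Tpx2 with a lower log2 bound of 0.01. Just outside were Kif20a with a ratio of 1.40 and Ccna2 with a lower bound of -0.03. Leaving out the 4 genes with at most 3 reads in Ctrl (Ccnb1, Cdk1, Aurkb and Ttk), 15 of 26 were counted as higher, with a median log2 ratio of 1.03. Split by the mean of the libraries, 7 of the 11 genes with at least 1 FPKM were counted as higher, where 2.74% of all such genes were, and 12 of the 19 weaker genes, where 4.1% of all such genes were. The summed log2 ratio was 0.57 (0.42 to 0.72) in the stronger genes and 1.24 (1.02 to 1.45) in the weaker ones. A gene can reach this mean through a high CKO value, as Ccnb2, Plk1, Birc5 and Cdca8 did with under 1 FPKM in Ctrl. With at least 1 FPKM asked of Ctrl instead, 3 of 7 genes were counted as higher, with a median log2 ratio of 0.43. The share of all genes counted as higher under this minimum was not computed, so this count stands without a background.

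**Figure D3:**
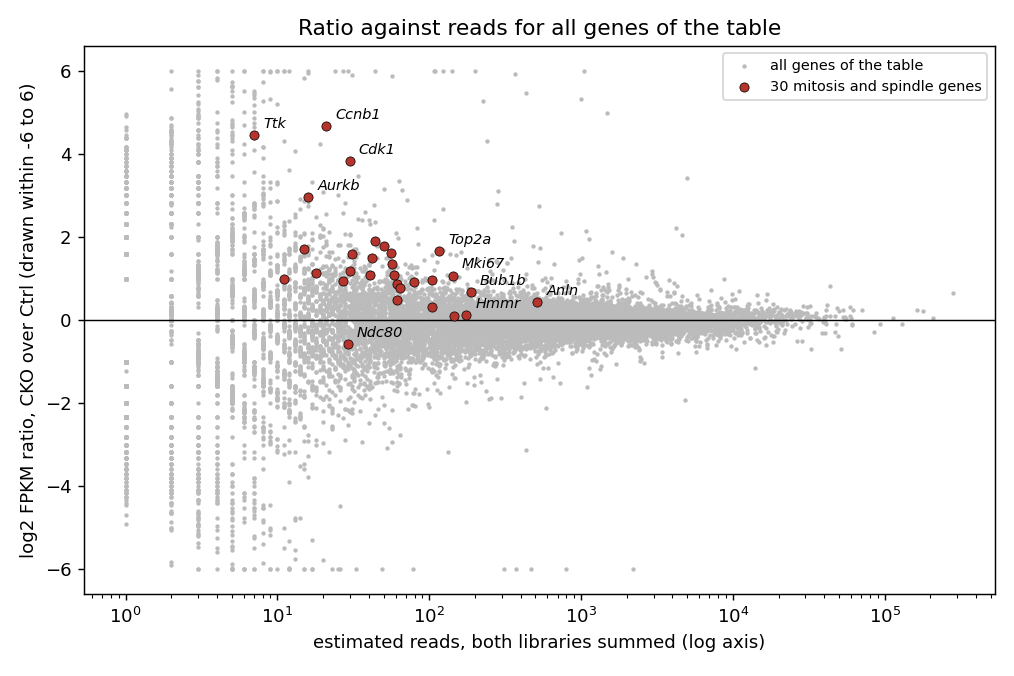
Log2 ratio of FPKM, CKO over Ctrl, against estimated reads summed over the libraries (log axis) for all genes of the table with reads (grey) and the 30 genes (red). The grey points spread out below about 100 reads on both sides of 0, while 29 of the 30 red points lie above 0 at every read number between 7 and 515.

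The reads behind these values could be checked against the deposited p-values. For 26 of the 30 genes exactly 1 pair of whole read numbers near the FPKM-based estimate returned the authors' deposited p-value, and for 25 of these the pair lay within 1 read of the estimate in both libraries. Ube2c was the other, at 64 and 36 reads in CKO and Ctrl. No such pair was found for Birc5, Tpx2, Cenpa and Anln. The authors' deposited table marks 6 of the 30 genes as up (Mki67, Top2a, Ccnb1, Ccnb2, Cdk1 and Kif23) and 0 as down, among 104 up and 108 down in all. Its false discovery rate compares the reads of 1 library with those of the other and not the conditions.

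Other genes of mitosis had a smaller median ratio. Of 81 further genes with roles in mitosis, 11 (13.6%) were counted as higher and 4 (4.94%) as lower. Over all genes of the table these shares were 3.16% and 4.85%, so the lower count was near that of any genes. The median log2 ratio of the 81 genes was 0.26, and 50 lay above 0. With trimmed-mean (TMM) scaling, which sets the centre at a log2 ratio of -0.03, the lower count was 2 and the higher count stayed at 11. The higher ones included the minus-end kinesin gene Kifc1, at 0.97 FPKM in CKO and 0.12 FPKM in Ctrl, and the scaffold gene Iqgap3, at 0.60 FPKM in CKO and 0.12 FPKM in Ctrl. They also included Gas2l3, which links actin and microtubules, at 0.82 FPKM in CKO and 0.23 FPKM in Ctrl, and the securin gene Pttg1, whose product guards sister chromatids, at 27.1 FPKM in CKO and 14.4 FPKM in Ctrl. Securin rested on 244 and 142 reads, with a log2 interval of 0.60 to 1.22. The 4 lower genes, named after their values were seen, were the centrosomal kinase gene Nek2, at 1.08 FPKM in CKO and 1.95 FPKM in Ctrl, and Cenpi, Cenpw and Fam83d. The summed reads of the 81 genes, 7338 in CKO and 7504 in Ctrl, gave a log2 ratio of 0.10 (0.05 to 0.14). Hjurp, named after its values were seen, held 2123 of these reads in CKO and 2478 in Ctrl, at a log2 ratio of -0.10. Among those of at least 1 FPKM on average the median was 0.13 over 35 genes, and among the weaker ones 0.37 over 46.

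The regulators of mitotic transcription were close to level. Of 24 listed, 1 (4.17%) was counted as higher, near the 3.16% of all genes, and 0 as lower. Their median log2 ratio was 0.13. The higher one was E2f8, a repressor of the E2F family, at 0.77 FPKM in CKO and 0.28 FPKM in Ctrl. Foxm1 was at 2.02 FPKM in CKO and 1.47 FPKM in Ctrl, a ratio of 1.37 (log2 interval 0.01 to 0.89). Mybl2, which encodes B-Myb, was at 0.80 FPKM in CKO and 0.46 FPKM in Ctrl, with an interval of -0.00 to 1.68. Lin54, the subunit of MuvB that binds CHR letters, was at 3.84 FPKM in CKO and 5.48 FPKM in Ctrl. Tfdp1, a partner of E2F proteins, had a log2 ratio of 0.39 and Nfya, a subunit of NF-Y, of -0.32.

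Further lists of mitotic machinery had medians close to level. Their median levels in CKO ran from 7.6 to 29.7 FPKM, against 0.91 FPKM in the 30 genes. Of 18 genes of the anaphase-promoting complex and its partners 0 were counted either way, and their summed log2 ratio was -0.00 (-0.04 to 0.04). Its subunit genes Anapc1, Cdc23, Anapc15 and Cdc27 had log2 ratios of -0.49, -0.32, 0.34 and -0.33. Of 12 cohesin genes 1 (8.33%) was counted as higher, the S-phase acetyltransferase gene Esco2, named after its values were seen. Esco2 was at 0.27 FPKM in CKO and 0.06 FPKM in Ctrl, from 9 and 2 reads. The loader genes Mau2 and Nipbl and the ring genes Smc1a and Rad21 had log2 ratios of -0.33, -0.22, -0.21 and -0.14. Of 38 spindle pole and tubulin genes 1 (2.63%) was counted as higher, the tubulin-binding gene Stmn1. Stmn1 was at 13.0 FPKM in CKO and 7.94 FPKM in Ctrl. The centrosome gene Cep192, the tubulin gene Tubb6 and the spindle pole gene Numa1 had log2 ratios of -0.49, 0.36 and -0.33. Of 25 regulators of mitotic entry and exit 1 (4%) was counted as lower, the cyclin G1 gene Ccng1. Ccng1 was at 10.3 FPKM in CKO and 15.8 FPKM in Ctrl. The stress gene Gadd45a and the phosphatase genes Ppp1cc and Ppp2r2d had log2 ratios of -0.39, 0.41 and 0.39.

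Genes of the preceding step, entry into S phase and DNA replication, were also close to level. Of 47 listed, 1 (2.13%) was counted as higher, near the 3.16% of all genes, and 0 as lower. Their median log2 ratio was 0.16 and their summed log2 ratio 0.03 (-0.01 to 0.07). Dnmt1, named after its values were seen, had a log2 ratio of -0.12 and weighed heavily in this sum. It held 3180 of 9955 reads in CKO and 3783 of 10668 in Ctrl. The median level of the list in CKO was 4.26 FPKM, against 0.91 FPKM in the 30 genes, and the list was not split by level. The higher one, Clspn, which relays replication stress, was at 0.42 FPKM in CKO and 0.12 FPKM in Ctrl. The replication genes Gins2, Rfc3 and Mcm6 had log2 ratios of 0.53, -0.51 and 0.24. Ccnd1, the gene of cyclin D1 named in the study's title, was at 19.7 FPKM in CKO and 12.0 FPKM in Ctrl, a ratio of 1.65 (log2 interval 0.57 to 0.88).

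**Figure D4:**
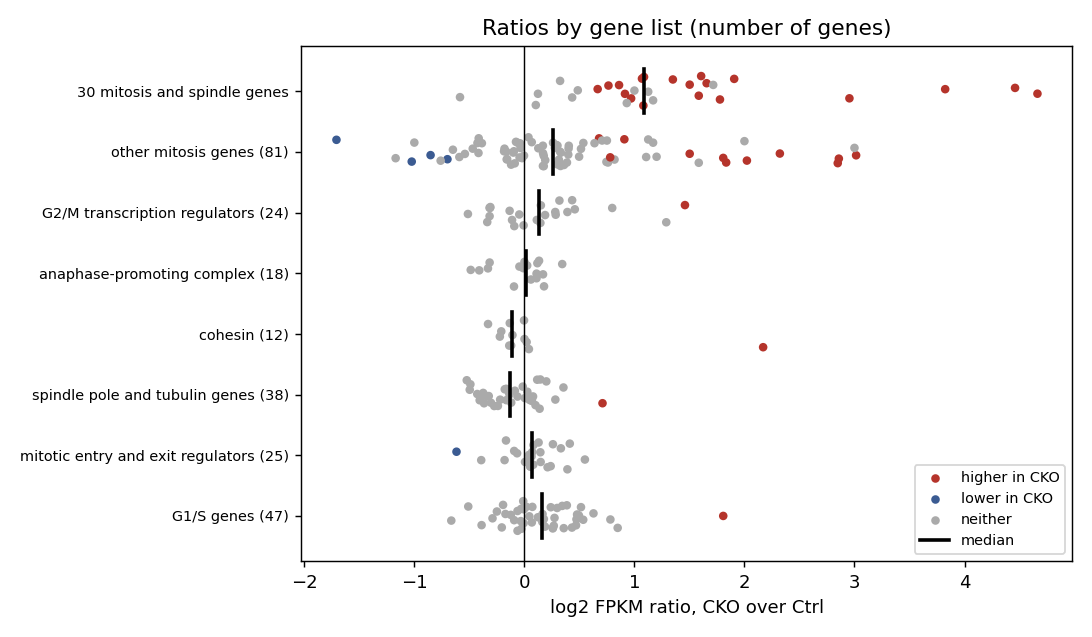
Log2 ratio of FPKM, CKO over Ctrl, of every gene in the 30 and in 7 other lists, with the median of each list as a bar. The median of the 30 genes is 1.08, and those of these 7 lists lie between -0.13 and 0.26. The lists of cell type markers are not drawn.

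Markers of other cells that a luminal sort could hold are given beside these values. Of 12 basal myoepithelial markers 9 (75%) were counted as higher and 1 (8.33%) as lower. Over all genes of the table these shares were 3.16% and 4.85%. The levels of the 12 summed to 295 FPKM in CKO and 162 FPKM in Ctrl, and none was at 0 reads. Their summed reads had a ratio of 1.77 (1.70 to 1.84), close to the 1.74 of the 30 mitosis and spindle genes. The median log2 ratio was 0.76 in these markers and 1.08 in the 30 genes. The basal keratin gene Krt14 was at 90.8 FPKM in CKO and 44.5 FPKM in Ctrl, and the basal regulator gene Trp63 at 1.05 FPKM in CKO and 2.96 FPKM in Ctrl. The part of basal cells in the values of the mitosis genes was not tested. Of 11 myeloid markers the neutrophil gene S100a8 alone was counted as higher, and their levels summed to 504 FPKM in CKO and 426 FPKM in Ctrl, of which Cd14 alone held 468 and 401. T and NK cell markers reached at most 0.91 FPKM in CKO and 0.78 FPKM in Ctrl, levels that many of the 30 genes shared. The 10 in the table summed to 3.73 FPKM in CKO and 3.15 FPKM in Ctrl, from 74 and 72 reads, with Cd3e and Nkg7 at 0 reads in CKO and Cd247 counted as higher. The 10 B and plasma cell markers summed to 2.84 FPKM in CKO and 3.25 FPKM in Ctrl, from 61 and 76 reads, with Fcrla at 0 reads in CKO and the plasma cell gene Jchain counted as lower. The 10 endothelial markers had 0 counted either way, with sums of 44.3 FPKM in CKO and 42.0 FPKM in Ctrl. The 10 fibroblast markers had 1 higher and 2 lower, with sums of 54.3 FPKM in CKO and 48.6 FPKM in Ctrl, and the 4 red cell markers in the table had 0 counted, with sums of 8.65 FPKM in CKO and 7.97 FPKM in Ctrl.

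The promoters of the 30 genes shared the letters shown above. RefSeq windows were matched for 25 of them, 1 window each. CHR letters occurred in 20 of 25 windows (80.0%), against 19.2% of all 32851 RefSeq windows, and CCAAT in 20 of 25 (80.0%), against 37.4%. Both occurred in 18 of 25 windows (72.0%), against 7.52% of all windows. The other mitosis genes largely shared these letters, with CHR in 65.8%, CCAAT in 71.1% and both in 38 of their 76 windows. Top2a held 4 CHR matches and 6 CCAAT boxes, Cdk1 held 2 and 3, Ccnb2 held 2 and 3, and Ccnb1 held 2 CCAAT boxes without the CHR letters searched. The CHR letters lay near the start, with a median position of 3 relative to it over 28 matches, against -125 over 7260 matches in all windows. The CCAAT boxes lay upstream, and 33 of 50 (66.0%) fell within the 100 bases before the start, against 43.6% of those in all windows. In the 17 windows of genes counted as higher, 14 held both motifs, and in the 8 windows of the other genes 4 did. The windows of Birc5, Nuf2 and Nusap1 held neither, which says only that these letters are not in these windows.

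**Figure D5:**
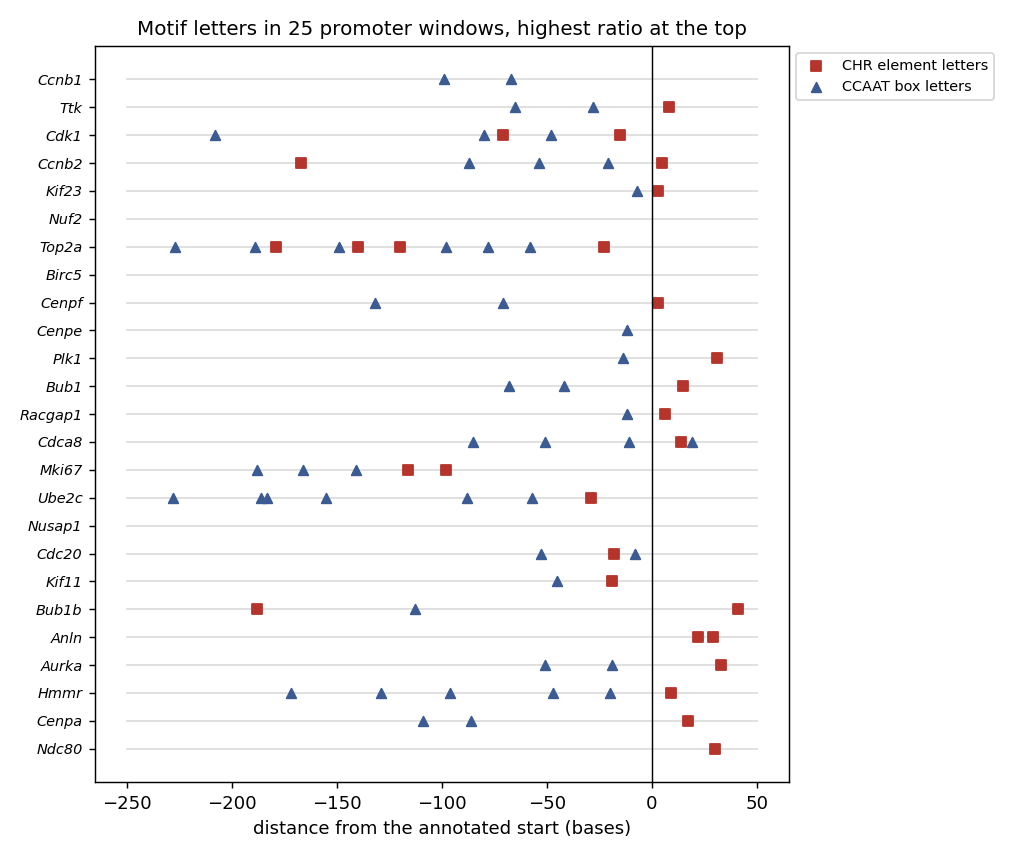
Position of CHR letters (squares) and CCAAT boxes (triangles) from 250 bases before to 50 after the annotated start in the 25 windows, ordered from the highest log2 ratio at the top. CHR squares gather around the start and CCAAT triangles upstream of it, in genes with high ratios (Ttk, Cdk1, Ccnb2) and low ones (Hmmr, Cenpa) alike.

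Matches to the seeds of the deleted microRNAs in the longest annotated 3′ UTR (GENCODE M21, GRCm38) were counted in the 30 genes and in the rest of the table. A match to either 7-base site occurred in 7 of 30 genes (23.3%), against 28.1% of 15759 genes of the table and 23.1% of the 13732 with a UTR between 62 and 3352 bases, the range of the 30 genes. Median UTR length was 634 bases in the 30 genes, 937 in those 13732 and 1096 in all, so the lengths were not matched. Among 77 other mitosis genes, with a median of 671 bases, 11.7% had a match. For miR-200c-3p the genes were Anln and Ccnb1, and for miR-141-3p they were Aurkb, Birc5, Ccnb1, Cdk1, Cenpf and Racgap1. The sites of the 3 with the highest ratios are shown, with the seed match in capitals. They lie at chr13:100779071-100779077 and chr13:100778953-100778959 on the minus strand (Ccnb1), chr10:69338075-69338081 on the minus strand (Cdk1) and chr11:69051095-69051101 on the plus strand (Aurkb).
Ccnb1 for miR-200c-3p: ggttcattttatcaaCAGTATTc
Ccnb1 for miR-141-3p: tctcagtgccctccaCAGTGTTc
Cdk1 for miR-141-3p: caacccacctacggaCAGTGTTt
Aurkb for miR-141-3p: gtccctgtcatttttCAGTGTTc

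Of the 7 genes with a match, 6 were counted as higher, and of the 23 without one, 13. Over all genes with an annotated UTR, 2.1% of those with a match and 3.15% of those without were counted as higher. Their median log2 ratios were -0.08 and -0.01. Top2a, Mki67, Ccnb2, Plk1 and Kif23 were among the genes counted as higher without such a site in that UTR. Other kinds of site and other UTRs were not searched, and a direct effect of the microRNAs on these genes was not tested.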

How the data were processed

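One table was used, with 1 expression value per gene and library. HISAT, Bowtie2, RSEM and build mm10 are named in the submitters' processing notes, and their versions, the annotation and the strand setting are not given in the sources used here, so reads of overlapping antisense genes cannot be told apart. The deposited values are FPKM, since multiplied by length in kilobases they summed to 999909 in CKO and 999609 in Ctrl. They are rounded to 2 decimals, which makes ratios of the scarcest genes coarse. The deposited log2 fold change equals the log2 ratio of these columns, CKO over Ctrl. The deposited p-values fit a Poisson-based (Audic-Claverie) test of the authors: genes without reads in 1 library returned whole read numbers within 0.01 in 81 of 81 cases. CKO held a share of 0.478 of all reads, from the 47 genes without reads in either library. Depths of 11400000 reads in CKO and 12500000 in Ctrl were those that best returned the p-values of 7846 genes, to a median distance of 0.0702 in log10 p.

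Reads were FPKM times kilobases times depth. Whole read pairs were sought between 0.94 and 1.03 times that estimate, widened by 1 read and by rounding. Where none was found, the summed reads were kept. The ratio, interval and call were tested on simulated reads. Those reads carried Poisson counting error alone, so the simulation says nothing of PCR copies or of the spread between animals. All 30 genes are named, and each other list gave its 4 genes of at least 20 summed reads whose interval bound nearest to 0 was farthest from it (not all are printed for markers), plus Foxm1, Mybl2 and Ccnd1. Other genes are said to be named after their values were seen, or are markers at 0 reads. The members and lists were chosen with earlier results of these data known. An earlier treatment added 0.5 FPKM before taking ratios, which puts ratios of weak genes outside their own intervals, so nothing was added here. Coordinates are GRCm38. Python 3.11.15, numpy 2.4.6, pandas 2.3.3, scipy 1.17.1 and matplotlib 3.10.9 were used.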

Additional observations from a re-analysis of the deposited data

How the results depend on the processing

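The count of higher genes was 19 as reported. It was 12 with 0.5 FPKM added and 10 with 1 FPKM added, which shrinks ratios of weak genes, 11 with 0.5 of the reads, and 7 of 11 and 3 of 7 with a minimum of 1 FPKM on the mean or in Ctrl, which tests fewer genes. It stayed between 14 and 24 under 0.1 FPKM added, at least 20 summed reads, a 2-fold limit, a 99% interval, the fold alone, both rescalings and the reads from deposited p-values. The count of lower genes was 0 except with the fold alone, where it was 1 (Ndc80). The median log2 ratio of 1.08 became 0.54 with 0.5 FPKM added, 0.36 with 1 FPKM added and 0.43 with the minimum in Ctrl. Of genes above 0 there were 29, 28 with reads from the deposited p-values, and 11 of 11 and 7 of 7 under the minimums. The summed log2 ratio of 0.80 became 0.57 with the minimum on the mean, 0.45 with that in Ctrl, and 1.04 without the 3 most abundant genes. With reads from the deposited p-values Birc5 and Tpx2 were no longer counted as higher, Ccna2 was, and Cenpa had a log2 ratio of -0.01. For the other lists 37 values stayed within the limits used and 5 moved, all of them counts: 2 lower genes of mitosis, and 2 higher G2/M regulators and 2 higher G1/S genes, with the trimmed mean of M-values, and 0 higher cohesin and 0 higher G1/S genes with 0.5 FPKM added. No list median, and no sum over the 30 genes, changed sign under these alternatives. Sums of the other lists were not recomputed. The trimmed mean of M-values has a shift of -0.0299. The sums of the anaphase-promoting complex, the spindle pole and tubulin genes and the G2/M regulators lie closer to 0 than that. So do those of the mitotic entry and exit regulators (0.0233) and of the G1/S genes (0.0277). No paired analysis was possible because there is 1 library per group, and no replicate could be left out. Depth limits the genes with at most 3 reads in Ctrl to a wide range of ratios.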
